A study of Saccharomyces cerevisiae with 3 samples.

Results

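Subtelomeric DNase I hypersensitive sites of budding yeast were taken as all listed nuclear sites that lay at least partly within 25 kb of either end of a chromosome. Of 8758 nuclear sites pooled over 3 lists, 444 met this rule: 136 of 3259 in wild type, 147 of 2438 in sba1 cells and 161 of 3061 in gcn5 cells. The 3 strains were BY4741, a MATa laboratory strain, its sba1 deletion (genotype written sba1-/- in the labels, called sba1 cells) and its gcn5 deletion (gcn5-/-, called gcn5 cells), all grown in rich medium with glucose. Each strain had 1 library and 1 list, so no difference between strains has a replicate check and no test was made. Shares are given with exact Clopper-Pearson 95% intervals, which cover counting over sites only. SBA1 encodes the yeast p23, a co-chaperone of Hsp90. GCN5 encodes the acetyltransferase subunit that SAGA and ADA use on histones. Both deletion strains came from a commercial supplier, per the labels.

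DNase I cuts chromatin preferentially where DNA is not wrapped in nucleosomes, and a hypersensitive site is a stretch with more cuts than its surroundings. Yeast chromosomes end in short telomeric repeats. Every end carries an X element, and at some ends one or more Y′ elements lie between the repeats and the X element. Next to the repeats the Sir proteins form silent chromatin, and the genes of the region are often members of multi-copy families such as PAU, COS, FLO and MAL. X and Y′ elements hold replication origins and bind general factors such as Abf1, and the silent mating-type cassettes HML and HMR of chromosome III lie within the same windows. Near-identical copies make read placement uncertain in Y′ elements, PAU and COS genes and the cassettes, and how multiply matching reads were treated is not stated.

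The chromosome ends held fewer sites than the rest of the genome in every list. The 32 windows of 25 kb, 800 kb in all or 6.63% of the nuclear span, held 17.0 sites per 100 kb in wild type against 27.7 in the interior. The sba1 deletion had 18.4 at the ends against 20.3 in the interior, and the gcn5 deletion 20.1 against 25.7. Sites covered 5.76% of the bases of the ends in wild type, 8.06% in sba1 cells and 7.16% in gcn5 cells. The corresponding interior values were 10.4%, 13.2% and 10.6%. Both deletions thus had more listed sites and more covered bases over the 25 kb windows than wild type. Within 10 kb of the ends this turned for gcn5 cells in the number of sites, with 31 in wild type, 38 in sba1 cells and 30 in gcn5 cells. In the interior both had fewer sites than wild type. The number of covered bases exceeded that of wild type at 25 of 32 ends in sba1 cells and at 25 of 32 in gcn5 cells. Read depth is unknown, and its part in these differences was not tested.

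**Figure D1:**
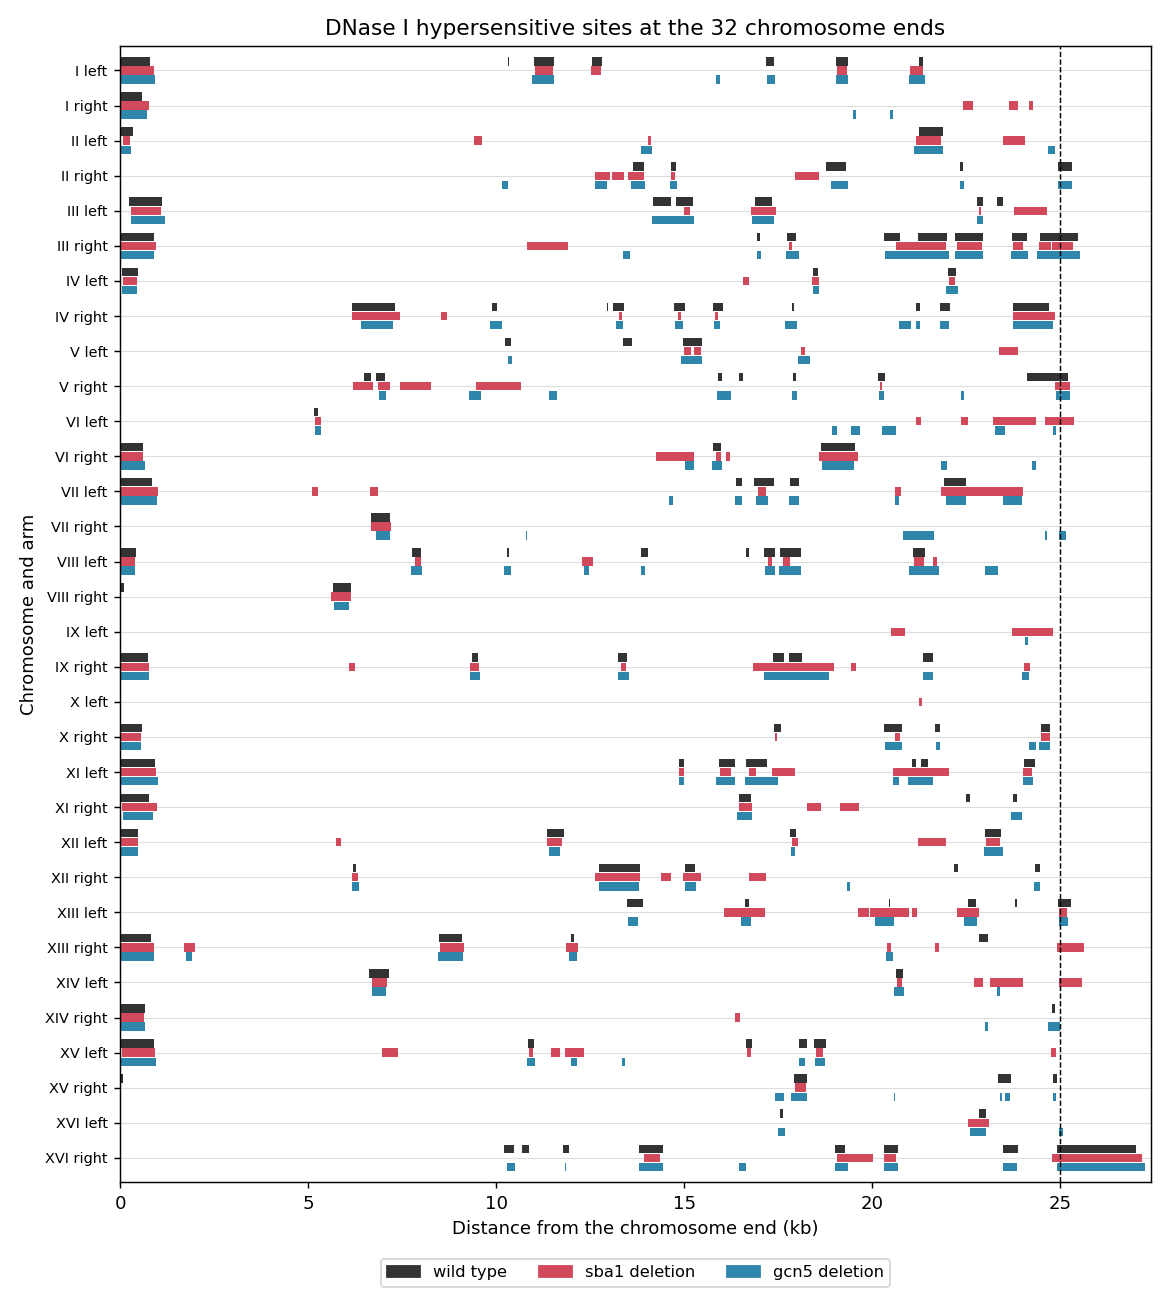
Map of every subtelomeric site at the 32 chromosome ends (rows), with distance from the end in kb on the x axis and 1 bar per site, colored by strain; the dashed line marks 25 kb. Sites within 1.5 kb of an end stand apart from the next sites, which begin beyond 5 kb at all ends except XIII right in the 2 deletions.

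The number of sites per end ranged from 0 to 10 in wild type, with a median of 4, from 1 to 8 in sba1 cells, with a median of 5, and from 0 to 10 in gcn5 cells, with a median of 5. The right end of chromosome IV held the most sites in wild type, 10, with 6 in sba1 cells and 10 in gcn5 cells. The left ends of chromosomes IX and X held no wild-type site. The left end of IX had 2 sites in sba1 cells, at the hexose transporter relative HXT12 and at CSS1, and 1 site of 60 bp at CSS1 in gcn5 cells. The left end of X had 1 site of 69 bp in sba1 cells and none in gcn5 cells. Chromosome III right, the end with HMR, had the most covered bases in all 3 lists, with 4.12 kb in wild type, 4.95 kb in sba1 cells and 5.08 kb in gcn5 cells.

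Near the end itself the sites fell into 2 zones with a gap between them. In the first kilobase, sites covered 36.3% of the bases in wild type, 37.2% in sba1 cells and 37.3% in gcn5 cells. Between 2 and 5 kb from the ends no base was covered in any list. Coverage then went from 2.76% at 5 to 10 kb in wild type to 4.40% at 10 to 15 kb, 6.47% at 15 to 20 kb and 7.84% at 20 to 25 kb. The sba1 deletion had 4.91%, 5.48%, 8.48% and 13.8% in the same zones, and the gcn5 deletion had 2.67%, 5.02%, 8.60% and 11.8%. The first kilobase was thus covered to a similar extent in the 3 lists. From 20 to 25 kb the coverage of each deletion was above its own interior mean of 13.2% or 10.6%, while that of wild type was below its interior mean of 10.4%. Right-hand ends were taken as the last annotated gene or listed site, so distances from them may be too short.

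**Figure D2:**
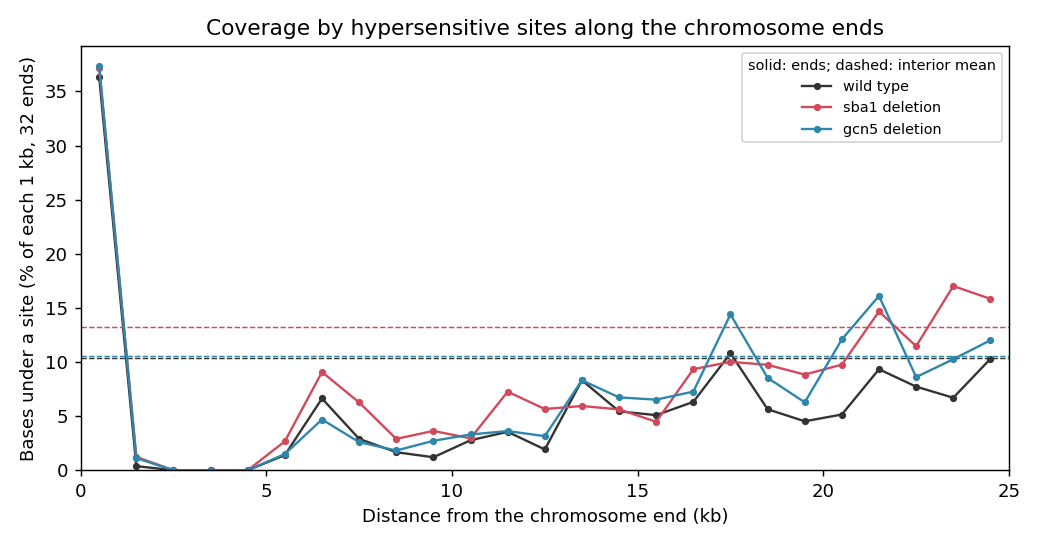
Percent of bases under a listed site in each successive 1 kb from the chromosome end, over the 32 ends, by strain (solid lines), with the mean of the interior as dashed lines. The first kilobase is covered to 36.3 to 37.3%, 2 to 5 kb to 0, and the lines approach the interior means beyond 15 kb.

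Terminal sites, defined here as those within 1.5 kb of an end, were the strongest of the subtelomeric sites. They were listed at 19 of 32 ends in wild type and at 17 ends in each deletion, and the same 17 ends held one in all 3 lists. At 13 ends no list held a terminal site. The score that the authors gave each site has no stated scale and is compared here only within a list. Terminal sites in wild type had scores from 2.04 to 81.1 with a median of 15.5, against a median of 2.16 over the other 117 subtelomeric sites and 2.19 over the interior. In sba1 cells the medians were 11.1 for terminal sites and 2.26 for the others. In gcn5 cells they were 10.9 and 2.20. Of the 20 best-scored nuclear sites, terminal sites made up 10 in wild type, 2 in sba1 cells and 7 in gcn5 cells, and of the best 50 they made up 15, 6 and 12. Wider sites had higher scores, with a Spearman's rho of 0.886 over the 136 wild-type subtelomeric sites as a description, and terminal sites were wide, with a median of 656 bp in wild type.

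The best-scored terminal site lay at the left end of chromosome XII, from 8 to 474, outside the gene YLL067C. Its score was 81.1 in wild type, 56.9 in sba1 cells and 67.9 in gcn5 cells, and it ranked 2 in each list. At the left end of VIII the site from 15 to 406 scored 23.9 in wild type, with 15.6 in sba1 cells and 15.3 in gcn5 cells. At the right end of XIII, beyond PAU19, the site from 923565 to 924362 scored 20.5, with 15.0 and 10.9 in the 2 deletions. The terminal sites of I left, from 1 to 801, and XI left, from 1 to 920, ended short of PAU8 and PAU16 and scored 20.1 and 19.1 in wild type. Those of X right, VI right and XIV right scored 18.4, 17.9 and 17.2 in wild type, beside the genes COS5, YFR057W and YNR077C. All 8 of these sites had counterparts in both deletions.

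The 17 shared terminal sites had similar widths in the 3 lists. The median ratio of width to wild type was 1.01 in sba1 cells and 1.02 in gcn5 cells, with 9 and 11 of 17 wider than in wild type. Within its own list each site can be ranked by score, where rank 1 is the best. Over all 19 terminal sites of wild type, including those listed in wild type alone, the median rank was 20 of 3259 nuclear sites. Over the 17 of each deletion it was 59 of 2438 in sba1 cells and 30 of 3061 in gcn5 cells. The lowest-ranked of the 17 in each list was at II left, from 20 to 331 in wild type, with ranks of 141, 1005 and 393. The lists differ in length and their thresholds are unknown, so these ranks describe each list and show no change between strains.

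**Figure D3:**
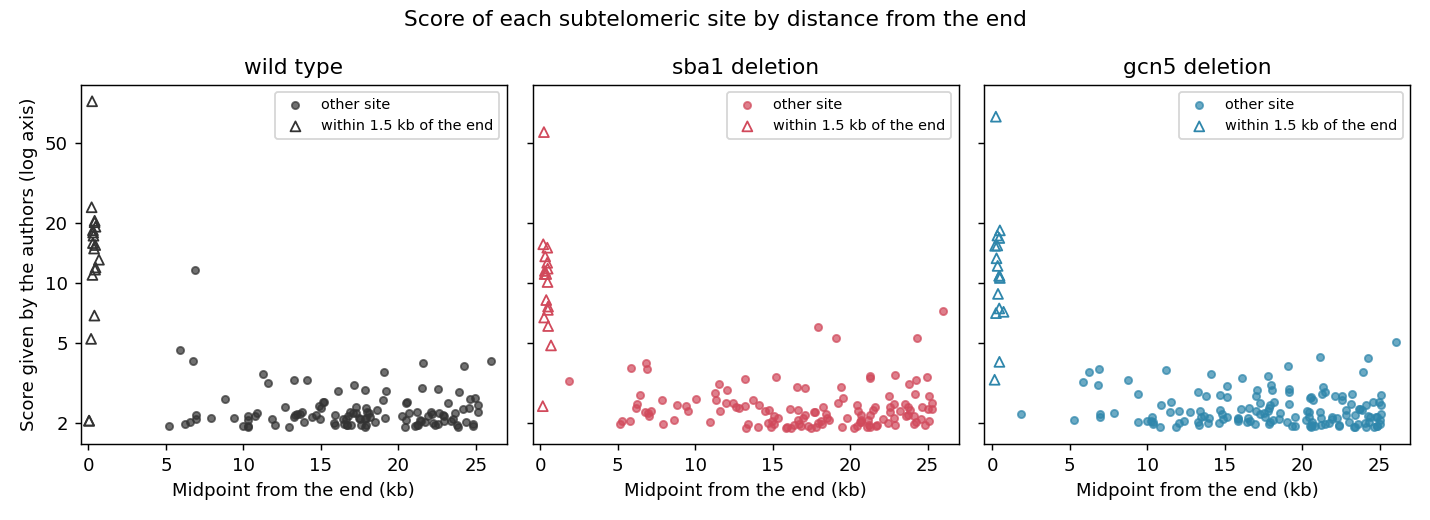
Score given by the authors (log axis) against the distance of each site's midpoint from the chromosome end in kb, 1 panel per strain; triangles are sites within 1.5 kb of an end and circles the other sites. Most triangles lie well above the circles, and the best site, at XII left, has 81.1, 56.9 and 67.9 in the 3 panels.

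The 2 terminal sites listed in wild type alone were short and weak. The one at VIII right, from 562401 to 562501, scored 2.05, and the one at XV right, from 1091157 to 1091236, scored 2.04. The remaining 17 scored at least 5.25 in wild type. Of the 7 ends that hold a gene named YRF1, the helicase encoded by Y′ elements, 6 had no terminal site in any list and the seventh was XV right. Other ends carry outermost genes known by systematic names only, so a count by the name YRF1 does not include every Y′ element.

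At 6 of the 13 ends without a terminal site, the nearest site lay 5 to 7 kb in, in all 3 lists. These were IV right, V right, VI left, VII right, XII right and XIV left, with the wild-type site beginning 6152, 6484, 5162, 6680, 6201 and 6610 bp from the end. At XIV left the site from 6611 to 7156 lay between YRF1-6 and COS1. Its score of 11.6 in wild type, at percentile 98.8 of its list, was the highest of all subtelomeric sites that were not terminal. The counterparts scored 3.72 in sba1 cells and 3.70 in gcn5 cells, at percentiles 83.0 and 90.3 of their lists. At IV right the site from 1524404 to 1525559, between PAU10 and YRF1-1, scored 4.04 in wild type, 3.97 in sba1 cells and 3.10 in gcn5 cells. A like site stood at VIII right from 556366 to 556843, with a wild-type score of 4.59 and deletion scores of 3.74 and 3.20. YRF1 genes themselves held no site, neither in the coding sequence nor in the 500 bp before the start codon, in 8 of 8 genes and all 3 lists.

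Wild-type subtelomeric sites were found again in the deletions more often than interior sites. A site was counted as found when it shared at least 1 bp with a site of the other list. In sba1 cells 94 of 136 were found, 69.1% (60.6 to 76.8%), against 52.7% (51.0 to 54.5%) of interior sites. The other 42, or 30.9%, had no counterpart, where the share over all nuclear wild-type sites was 46.6%. In gcn5 cells 119 of 136 were found, 87.5% (80.7 to 92.5%), against 79.0% (77.5 to 80.4%) in the interior. The 17 without a counterpart were 12.5%, where the share over all nuclear sites was 20.7%. Because strong sites are found more often, interior sites were also weighted to the score distribution of the subtelomeric ones, which gave 54.5% for the sba1 deletion and 79.9% for the gcn5 deletion. Without the terminal sites, 77 of 117 were found in sba1 cells, 65.8% (56.5 to 74.3%), and 102 of 117 in gcn5 cells, 87.2% (79.7 to 92.6%). The weighted interior shares for these were 48.4% and 77.2%.

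By score, the difference in sba1 cells lay in the middle classes. In the lowest of 5 classes of wild-type score 28.0% of subtelomeric sites and 25.2% of interior sites were found. In the next classes the subtelomeric shares were 53.8%, 68.8% and 88.9% against 29.1%, 40.2% and 70.3% in the interior. In the highest class 35 of 35 subtelomeric sites were found, against 99.2% in the interior. For the gcn5 deletion the shares in the lowest class were 76.0% at the ends, from 19 of 25 sites, and 47.8% in the interior. In the middle class they were 84.4% and 85.6%.

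By distance, wild-type sites of the outer zones were found again most often. Of 19 wild-type sites with their midpoint within 5 kb of an end, all of them terminal, 17 were found in each deletion. Of 12 at 5 to 10 kb, 11 were found in each. From 10 kb inward the share found in sba1 cells was 56.0% of 25 sites, 66.7% of 36 and 61.0% of 41. In gcn5 cells it was 80.0%, 88.9% and 87.8% of the same sites. The intervals of these classes overlap. Of sba1 sites within 5 kb, 94.4% of 18 had a wild-type counterpart. From 5 kb inward the share of sba1 sites with one was 57.9% of 19, 56.5% of 23, 69.4% of 36 and 48.9% of 45.

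**Figure D4:**
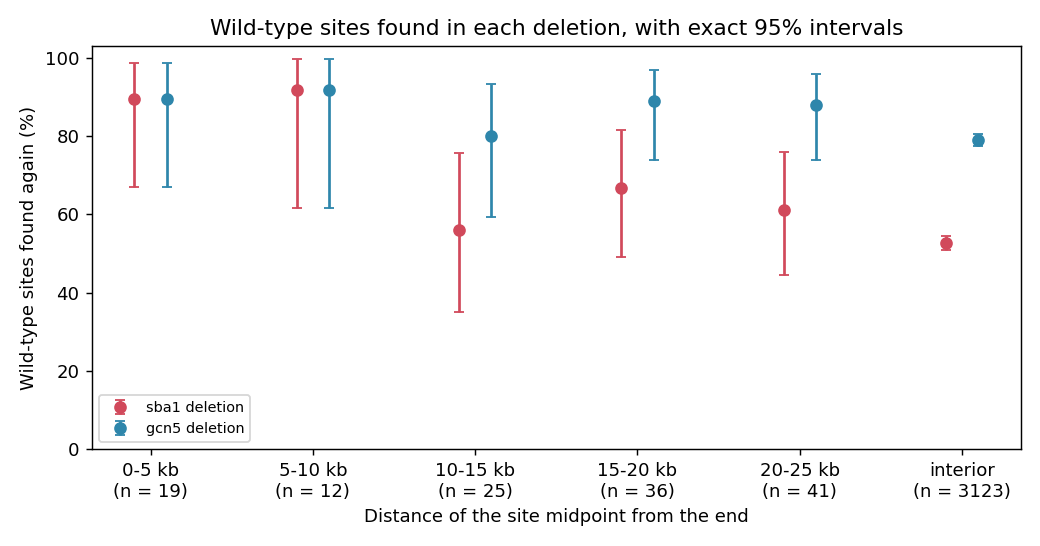
Percent of wild-type sites that share at least 1 bp with a site of each deletion, by distance of the site midpoint from the end and for the interior, with exact 95% intervals that cover counting over sites only. In sba1 cells the 3 classes beyond 10 kb lie between 56.0 and 66.7%, against 52.7% in the interior; 3 wild-type sites with midpoints beyond 25 kb are in no class of the ends.

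Sites without a wild-type counterpart made up 54 of 147 in sba1 cells, 36.7% (28.9 to 45.1%), beside 35.6% of all nuclear sba1 sites. The sba1 share at the ends was thus close to its background. In gcn5 cells they made up 45 of 161, 28.0% (21.2 to 35.6%), beside 18.3% of all nuclear gcn5 sites and 17.8% (16.4 to 19.2%) of interior sites. These intervals cover counting over sites only, and the difference between ends and interior was neither tested nor weighted by score. In windows of 10 kb the share turned to the other side of the background, with 6.67% of 30 sites without a wild-type counterpart. This rests on few sites, and 17 of the 30 were terminal. By midpoint, 17 of 18 gcn5 sites within 5 kb and 11 of 12 at 5 to 10 kb had a counterpart. Over the whole windows without terminal sites, 45 of 144 had none, 31.3% (23.8 to 39.5%). The gained gcn5 sites thus lay mostly beyond 10 kb. These gcn5 sites were mostly narrow and weak, with medians of 170 bp in width and 26.1 in score percentile, against 260 bp and 49.3 for those of the sba1 deletion. Of the 54, 15 overlapped a gained site of the other deletion, 27.8%, and of the 45, 16 did, 35.6%. The same shares over all nuclear gained sites are not given here, so these overlaps are not shown to be particular to the ends. Both deletions were set against the same wild-type list.

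When overlapping sites of the 3 lists were merged, 213 subtelomeric regions resulted. All 3 lists held 88 of them, with a median width of 528 bp. Regions of 1 list were narrower, with medians of 110 bp for the 13 of wild type, 234 bp for the 37 of the sba1 deletion and 130 bp for the 27 of the gcn5 deletion. A further 28 were shared by wild type and the gcn5 deletion, 4 by wild type and the sba1 deletion, and 16 by the 2 deletions. Wild type thus shared more regions with the gcn5 deletion than with the sba1 deletion. This order is not particular to the ends. Of all nuclear wild-type sites, 79.3% were found in gcn5 cells and 53.4% in sba1 cells.

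Subtelomeric sites lay in coding sequence less often than interior sites. The midpoint fell in a protein-coding gene for 16.2% (10.4 to 23.5%) in wild type, 30.6% (23.3 to 38.7%) among sba1 sites and 15.5% (10.3 to 22.1%) among gcn5 sites. The interior shares were 36.6%, 45.4% and 33.2%. Between convergent genes, where no promoter faces the site, lay 16.2% of wild-type midpoints at the ends and 5.44% in the interior. The convergent shares of the deletions were 10.9% for sba1 and 13.7% for gcn5. Sites over 1 kb wide numbered 5 of 136 in wild type, 15 of 147 in sba1 cells and 7 of 161 in gcn5 cells, or 3.68%, 10.2% and 4.35%. In the interior 7.20%, 19.4% and 8.21% were as wide. The widest subtelomeric site in all 3 lists spanned the aquaporin gene AQY1 on chromosome XVI, from 920699 to 922783 in wild type, and covered the whole coding sequence in each list. Interior sites reached 4316, 6056 and 4315 bp. Its score was 4.08 in wild type, 7.24 in sba1 cells and 5.05 in gcn5 cells.

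More subtelomeric genes had a promoter site in the deletions than in wild type. A promoter site is one that touches the 500 bp before the start codon. Of 320 protein-coding genes at least partly within 25 kb of an end, 52 had one in wild type, 16.3% (12.4 to 20.8%). In sba1 cells 76 had one, 23.8% (19.2 to 28.8%), and in gcn5 cells 75 had one, 23.4% (18.9 to 28.5%). The interior shares were 44.8%, 39.5% and 45.1% of 5682 genes. The share at the ends depended on distance: in wild type it was 5.26% of 57 genes within 5 kb, 2.90% of 69 at 5 to 10 kb, 9.38% of 64 at 10 to 15 kb, 29.3% of 58 at 15 to 20 kb and 33.3% of 72 at 20 to 25 kb. In sba1 cells the same shares were 7.02%, 10.1%, 14.1%, 39.7% and 45.8%, and in gcn5 cells 7.02%, 2.90%, 20.3%, 43.1% and 43.1%.

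Of the 268 genes without a wild-type promoter site, 42 had one in sba1 cells, 15.7%, beside 19.7% of all such genes, and 32 had one in gcn5 cells, 11.9%, beside 11.9% of all such genes. Of the 52 with such a site, 18 lacked it in sba1 cells, 34.6%, beside 36.5% of all such genes, and 9 lacked it in gcn5 cells, 17.3%, beside 14.0%. The shares gained and lost at the ends were near those of the whole genome, but gains were drawn from 268 genes and losses from 52. In both deletions 19 genes gained a promoter site, 45.2% of the 42 and 59.4% of the 32, and 7 genes lost theirs in both. The share of all genes that gained or lost one in both is not given here, so these overlaps are not shown to be particular to the ends. Both deletions were set against the same wild-type list.

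The 19 genes, chosen after their values were seen, included HXK1 and HXK2, which encode the hexokinases that phosphorylate glucose, the zinc transporter gene ZRT1, the phosphate transporter gene PHO89, the lysine synthesis gene LYS1 and ERG13, which encodes the HMG-CoA synthase of sterol synthesis. The list also held DAL3 of allantoin use, AQY3, DAK2 for dihydroxyacetone kinase, the mitochondrial chaperone gene MDJ2 and 3 PAU genes. A gained promoter site need not be a new site. Those at LYS1 and ERG13 lay in merged regions that also held wild-type sites outside the promoter windows. A single site can also count for more than 1 gene, as at the divergent promoter of AQY3 and DAK2. The 7 genes that lost a promoter site in both included TUB3, which encodes an alpha-tubulin, TGL3, a lipase of lipid droplets, and PRE5, a proteasome subunit. The wild-type site at TUB3 was 54 bp wide and scored 1.91, at percentile 2.24 of its list. TGL3 and PRE5 share 1 divergent promoter, whose wild-type site on chromosome XIII, 901293 to 901519, scored 2.16. RMD6 on chromosome V was among the 7 as well, through a wild-type site from 13368 to 13614 with a score of 2.20. At YER181C and FMP10, a wild-type site of 1086 bp on chromosome V, 551328 to 552413, was replaced in the lists by sites of 385 bp in sba1 cells and 382 bp in gcn5 cells that did not reach either promoter window.

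Coding sequences were covered more widely in sba1 cells. Of the 320 genes, 42 held a site in the coding sequence in wild type, 69 in sba1 cells and 54 in gcn5 cells, and 8, 21 and 9 were covered over at least 50% of their length. The mean covered share per gene was 3.28% in wild type, 8.04% in sba1 cells and 3.94% in gcn5 cells, against 8.35%, 14.0% and 8.49% in the interior. Coverage was above wild type at 56 subtelomeric genes and below it at 16 in sba1 cells, and above at 38 and below at 16 in gcn5 cells. In the interior, 1382 genes were above and 1220 below in sba1 cells, and 891 above and 1244 below in gcn5 cells.

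The genes named next, chosen after their values were seen, show what lies behind the counts. On the right arm of chromosome IX, wild type had sites of 341 and 286 bp between and in NRE1 and IRC24, adjacent reductase genes. The sba1 deletion had 1 site of 2160 bp there, from 420903 to 423062, and the gcn5 deletion 1 of 1711 bp, from 421053 to 422763. NRE1 was covered to 5.36% in wild type, 100% in sba1 cells and 96.5% in gcn5 cells, and IRC24 to 38.3%, 100% and 87.1%. Both deletions thus held 1 wide site across a gene pair where wild type held 2 narrow ones.

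On the left arm of chromosome VII, an sba1 site of 2175 bp, from 21831 to 24005, covered the whole of FZF1, a transcription factor gene for sulfite resistance, and reached the promoter of HXK2. FZF1 was covered to 22.2% in wild type and 22.4% in gcn5 cells. The gcn5 deletion had a separate site of 518 bp, from 23465 to 23982, before HXK2. The coding sequence of MIC10, which encodes a subunit of the mitochondrial MICOS complex, was covered to 100% in sba1 cells and to 0 in the other lists. GTT2, a glutathione transferase gene, was covered to 88.0% in sba1 cells and to 0 in the other lists. ERG13 was covered to 2.85%, 61.1% and 31.1% in wild-type, sba1 and gcn5 cells.

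On the left arm of chromosome VI, wild type listed no site at AQY3 or DAK2. The sba1 deletion had a site of 1145 bp at the start of DAK2, from 23208 to 24352, with a score of 3.12, and a second one within the gene, from 24606 to 25359, with 3.37. The gcn5 deletion had sites of 276 bp in the divergent promoter of AQY3 and DAK2, with 2.19, and of 73 bp within DAK2, with 1.92. Another gcn5 site within DAK2, from 25108 to 25245, began just beyond the 25 kb limit and is no member. Within AQY3, sba1 cells had 2 further sites, of 148 and 179 bp. With all sites counted, DAK2 was covered to 85.8% in sba1 cells and 15.3% in gcn5 cells. These were among the best-scored gained sites shared by the deletions, and the gcn5 sites were the narrower ones at both places.

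At PHO89 on chromosome II, wild type held a site within the gene from 797551 to 797831. Both deletions held it too, and each held a further site before the start codon, from 798447 to 798864 in sba1 cells and from 798532 to 798849 in gcn5 cells. The gene was covered to 18.9% in wild type, 49.6% in sba1 cells and 24.8% in gcn5 cells. The other 4 genes of the phosphate list, among them the acid phosphatase gene PHO11, held no site in any list. The promoter gain at PHO89 is 20.0% of the 5 genes of the phosphate list. It stands beside 19.7% in sba1 cells and 11.9% in gcn5 cells of all genes without a wild-type promoter site. The high-affinity phosphate transporter gene PHO84 on chromosome XIII, from 24037 to 25800, is not on that list and is named after its values were seen. It was covered to 27.2% in wild type, 15.5% in sba1 cells and 14.2% in gcn5 cells, and had a promoter site, with a score of 2.93, in sba1 cells alone.

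PAU genes, which encode seripauperins, small cell-wall mannoproteins related to the anaerobic TIR and DAN proteins, had promoter sites at more members in the deletions than in wild type. A promoter site was listed at 1 of 19 members in wild type, 7 in sba1 cells and 5 in gcn5 cells. Of the 18 members without one in wild type, 6 had one in sba1 cells, 33.3%, beside 19.7% of all such genes, and 4 in gcn5 cells, 22.2%, beside 11.9%. PAU4 had one in each list, with scores of 2.53 in wild type, 3.37 in sba1 cells and 2.70 in gcn5 cells. PAU13, PAU19 and PAU20 had one in both deletions and none in wild type.

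PAU19 held a site from 922379 to 922677 with a score of 3.24 in sba1 cells and one from 922451 to 922613 with 2.21 in gcn5 cells. Wild type listed none. It was the sole site that lay wholly between 1.5 and 5 kb from an end in either deletion list. PAU20 on chromosome XV had sites from 11830 to 12323 with 2.93 in sba1 cells and from 11985 to 12154 with 1.98 in gcn5 cells. PAU10, PAU11 and PAU15 had a promoter site in sba1 cells alone and PAU12 in gcn5 cells alone. As the PAU sequences are near copies of each other, reads of one gene can be placed at another, and the part of read placement was not tested.

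The other gene families at the ends held few sites. Of 11 COS genes, which act in the sorting of membrane proteins to the vacuole, COS9 alone held one, over 11.1%, 10.9% and 11.5% of its coding sequence in wild-type, sba1 and gcn5 cells. The 3 flocculin genes at the ends, which encode cell-wall adhesins, each had a site in some list. FLO10 was covered to 0.256%, 26.6% and 0.712%, FLO1 to 17.2% in sba1 cells alone, and FLO9 had a promoter site in gcn5 cells alone. The gain at FLO9 is 33.3% of the 3 genes, beside 11.9% of all genes without a wild-type promoter site. Of 13 genes for maltose and isomaltose use, none had a site in wild type. IMA2 had a promoter site in sba1 cells and IMA1 one in gcn5 cells, and MAL33, an activator gene of maltose use, was covered to 11.4% in gcn5 cells. For the 13 these are shares of 7.69% in each deletion, beside 19.7% and 11.9% of all genes without a wild-type promoter site. Of 6 listed hexose transporter genes, HXT13 had a promoter site and the pseudogene HXT12 one in its body, both in sba1 cells alone. The gain at HXT13 is 16.7% of the 6, which include HXT12, beside 19.7% of all protein-coding genes without a wild-type promoter site.

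Among 6 genes for iron and siderophore uptake, the transporter genes ARN1 and ARN2 had promoter sites in wild type and the gcn5 deletion, and ARN1 in sba1 cells. These 2 of 6 in wild type stand beside 16.3% of all 320 genes at the ends with a promoter site. The formate dehydrogenase gene FDH1 had one in all 3 lists. Of 6 listed aryl alcohol dehydrogenase genes, among them the pseudogene AAD6, AAD4 counted as gaining a promoter site in both deletions. Wild type held an overlapping site within AAD4 that did not reach the promoter window. The gene was covered to 11.8% in wild type, 16.1% in sba1 cells and 15.4% in gcn5 cells. The gain at AAD4 is thus a shift in the edge of a shared site. It is 16.7% of the 6 in each deletion. Of all protein-coding genes without a wild-type promoter site, 19.7% gained one in sba1 cells and 11.9% in gcn5 cells. AAD10 was covered to 10.3% in wild type, 0.692% in sba1 cells and 0 in gcn5 cells. Of 8 vitamin genes, THI13 of thiamine synthesis held a site in sba1 cells alone. The 4 genes for polyols and mannitol, the 3 for arsenic resistance and the 3 enolase-related genes held none in any list. Sucrose genes do not lie in these windows in the gene table.

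HMR, the silent cassette with a-type information, held a group of sites in each list. Wild type listed 5 sites over the locus between 291153 and 296311 on chromosome III, the sba1 deletion 5 and the gcn5 deletion 4 over the same span. The site over HMRA1, which encodes the a1 repressor subunit, ran from 293678 to 294416 in wild type, from 293693 to 294376 in sba1 cells and from 293667 to 294429 in gcn5 cells. HMRA1 was thus wholly covered in every list, and HMRA2 had its promoter in the same site. This site scored 2.95 in wild type, 2.41 in sba1 cells and 2.70 in gcn5 cells. A second site, between HMRA1 and a transfer RNA gene, had the highest score of the locus, with 3.96, 3.36 and 4.28. It ran over 783 bp in wild type, 1337 bp in sba1 cells and 1678 bp in gcn5 cells. The transfer RNA gene, YNCC0014W, stands on the side of HMR where a barrier to silencing is known. It was covered to 0 in wild type and to 100% in both deletions. In wild type a further site, from 295881 to 296311, lay on the other side of this gene. The 1 site of each deletion overlapped both of these wild-type sites.

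On the other side of HMR, wild type had sites from 291153 to 292158 and from 292500 to 292909, and both deletions had sites that overlap each of them. Each silent cassette is flanked by silencers called E and I, elements that bind the origin recognition complex, Rap1 and Abf1. The gene table holds no silencers, so which of the sites cover them was not analysed here. The strain is MATa, while the reference gene table holds the alpha genes at MAT, so reads from the a genes at MAT match HMR in the reference. The part of such reads in the HMRA1 site was not tested. No list held a site at MATALPHA1 or MATALPHA2.

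HML, the cassette with alpha information on the left arm of chromosome III, held no site over HMLALPHA1 or HMLALPHA2 in any list. The reference holds alpha genes at MAT as well, and how reads that match both places were treated is not stated. Their part in the absence of sites at HML was not tested. Next to HML, between HMLALPHA1 and the serine deaminase gene CHA1, wild type had 2 sites, from 14172 to 14637 and from 14770 to 15223. The gcn5 deletion had 1 site across both, from 14144 to 15251, and the sba1 deletion had a site of 151 bp, from 15004 to 15154. Scores were 2.13 and 2.37 in wild type, 2.76 in gcn5 cells and 1.97 in sba1 cells. The site at the promoter of CHA1 was in every list, from 16874 to 17329 in wild type. The flank of HML was thus less covered in sba1 cells than in the other lists.

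**Figure D5:**
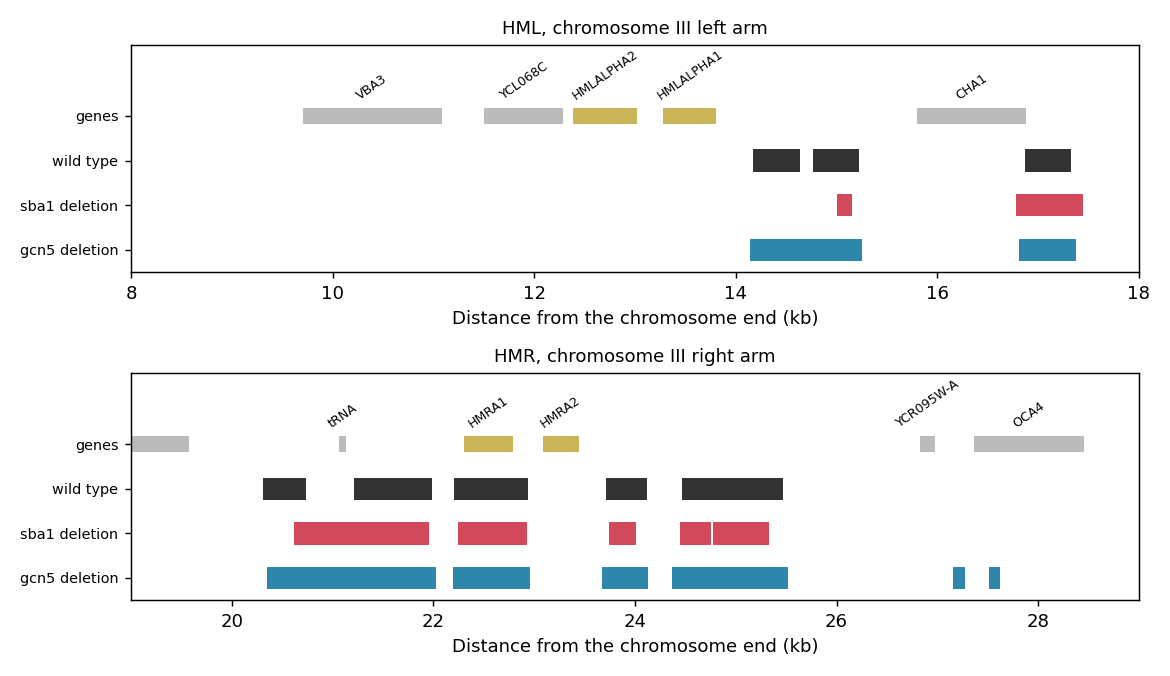
Sites at HML (upper panel) and HMR (lower panel) in the 3 lists, against distance from the nearer end of chromosome III in kb; gold bars are the cassette genes and gray bars the neighbouring genes. HMRA1 is covered in all 3 lists, the tRNA gene in the 2 deletions alone, and the HML genes in none. Wild-type sites lie on both sides of the tRNA gene.

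Among the best-scored sites lost in sba1 cells alone were one on chromosome II, 792168 to 792701, between the sulfate permease gene SUL1 and PCA1, with a wild-type score of 2.60, and one at ERO1, which encodes an oxidase of protein folding in the endoplasmic reticulum, with 2.21. Another lay on chromosome XVI, 923818 to 924234, near the oligopeptide transporter gene OPT2, with 2.24. Each of these had a counterpart in gcn5 cells. Of the 4 wild-type sites absent from the gcn5 deletion alone, the best scored lay on chromosome I, 12541 to 12799, with 2.40. The 5 best-scored of the sites gained in sba1 cells alone lay within FLO10, MIC10, YCR102C, YER188W and PHO89, with scores from 2.42 to 3.03, and all 5 had their midpoint in coding sequence. Of the 5 best gained in gcn5 cells alone, 1 lay in coding sequence, that of EFM1, and the others lay near AQY3, YER187W, FDH1 and DAL5. Their scores ran from 2.15 to 2.48.

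Well-scored sites that were not terminal were shared by the 3 lists. The site before the glycerol transporter gene STL1 on chromosome IV, from 1507014 to 1507957, scored 3.86 in wild type, 5.32 in sba1 cells and 4.23 in gcn5 cells. The site at RET2, a coatomer subunit gene, on chromosome VI from 250613 to 251526 scored 3.60, 5.32 and 3.86. Near SEO1 on chromosome I, the site from 11007 to 11540 scored 3.51, 2.82 and 3.68. All 12 of the best-scored wild-type sites that were not terminal, among them the HMR site beside HMRA1, had counterparts in both deletions. In the highest of the 5 score classes of the interior, 99.2% of wild-type sites were found in sba1 cells and 100% in gcn5 cells.

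The window of 25 kb was set by the rule for members. The wild-type members nearest to it began 24927 and 24942 bp from an end and scored 2.46 and 2.27, and the nearest sites outside it began 25064 and 25094 bp away and scored 2.93 and 1.92. In sba1 cells the nearest inside began at 24964 bp, on chromosomes XIII and XIV, with 2.04 and 2.34. The nearest outside began at 25006 bp, with 2.31. In gcn5 cells the nearest inside began at 24977 bp with 1.97 and the nearest outside at 25076 bp with 2.02.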

How the data were processed

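DNase-seq was run on nuclei from each of 3 strains, with 1 library per strain. The labels' protocols describe digestion over a range of enzyme amounts, and the amount behind each library is not stated. Bowtie 0.12.7 and, as build, sacCer3 appear in the submitters' processing notes. How peaks were called, the threshold and the use of multiply matching reads were not given in the sources used here, so a site is taken as the authors listed it. Each list, 1 per strain and without a header, gives the position, a name and a score for each site. No scale is stated for the score deposited by the authors, and it served only to rank or weight sites within a list. Read depth is unknown.

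Positions are 1-based. Genes came from the RefSeq table of assembly R64, taken as the sequence of sacCer3, with 6431 nuclear genes. Chromosome ends were taken as base 1 and the largest end of any gene or site. Sites were matched by at least 1 shared bp, genes by a window of 500 bp before the start codon or by the coding sequence. To weight interior sites, wild-type scores were cut into 5 equal classes. A share of 0 was given with no limit because lists hold only called sites. The members and gene lists were chosen with earlier results of these data known. Sites named are those scored best within each pattern of presence in the 3 lists, and genes named are members of the lists with a site in at least 1 list. Genes named outside that rule are marked as such. Groups were taken from the genotype of each sample, and 0 columns were left unmapped. Alternatives covered the width of the windows, how much of a site must overlap, shorter or equally long lists and fixed site widths. Those that leave out terminal sites or chromosome III, move the right ends by 2 kb or recount promoters were added after seeing the data. Python 3.11.15, pandas 2.3.3, numpy 2.4.6, scipy 1.17.1 and matplotlib 3.10.9 were used, and the matching was tested on simulated data.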

Additional observations from a re-analysis of the deposited data

Results flagged for a closer look

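In 3 classes of site position the deletions stood on opposite sides of wild type at the chromosome ends, and no difference was tested because each strain had 1 library. The share of midpoints in coding sequence was 14.4 percentage points above wild type in sba1 cells, while its difference from wild type was -0.6485 points in gcn5 cells. For midpoints between divergent genes the differences were -0.805 points in sba1 cells and 3.13 points in gcn5 cells. For midpoints between tandem genes they were -5.93 and 4.06 points. When all lists were cut to the same length by score, the coding share was 14.0% in wild type and 14.3% in gcn5 cells, so the direction turned. In the interior the coding share was likewise above wild type in sba1 cells, with 45.4% against 36.6%, and below it in gcn5 cells, with 33.2%. The interior showed the same order for the other classes, with divergent shares of 25.0% in wild type, 23.6% in sba1 cells and 26.4% in gcn5 cells, and tandem shares of 32.1%, 26.5% and 34.3%.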

How the results depend on the processing

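Of 132 values recomputed under other settings, 105 stayed within 1.5 times the count or within the exact interval of the share as reported, and 27 did not. The share of wild-type sites found stayed above the weighted interior share in 11 of 11 settings for each deletion, and more genes had a promoter site in each deletion than in wild type in 8 of 8 settings. The sba1 deletion listed more sites than wild type in 9 of 9 settings and the gcn5 deletion in 8 of 9, the exception being the narrower windows. With windows of 10 kb there were 31 sites in wild type, 38 in sba1 cells and 30 in gcn5 cells. The share found in sba1 cells was then 90.3%, the shares without a wild-type counterpart 26.3% and 6.67%, and the weighted interior shares 76.2% and 88.4%. With the better-scored 50% of each list there were 72, 82 and 82 sites, the weighted interior share for the sba1 deletion was 57.2%, and promoter sites were listed at 29 genes in wild type and 34 in gcn5 cells. With equal numbers of best-scored sites 80.4% were found in sba1 cells, against weighted interior shares of 64.1% and 81.7%. When at least 50% of both sites had to overlap, 47.8% and 69.1% were found, 56.5% and 41.6% had no wild-type counterpart, and the weighted interior shares were 26.8% and 60.7%. With each site set to 250 bp the weighted shares were 41.1% and 74.8%, and without terminal sites 48.3% and 77.1%. Each of these settings changes the sites that enter or the overlap required.

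Depth is unknown, so a site missing from a list cannot be told apart from one below the caller's threshold. With 1 library per strain, differences between strains cannot be told apart from differences between libraries. Exact intervals treat sites as independent, which neighbouring sites are not. Near-identical subtelomeric copies limit the placement of sites in Y′, PAU, COS and cassette sequences.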
